A study of Mus musculus with 4 samples.

Results

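Solute carriers are membrane proteins that move small molecules across the plasma membrane and the membranes of organelles. Their genes were taken as those whose symbol in the platform annotation starts with Slc, a family number, the letter a and a member number. Of 9285 genes named by probes of the array, 161 met this rule, in 44 families, and 211 of the 15478 probes measured them. Of these symbols, 5 carry a further suffix. Slc5a4b is a sugar transporter, whereas Slc4a1ap, Slc7a6os, Slc9a3r1 and Slc9a3r2 are adaptor proteins or neighbouring genes that share a transporter's name. Organic anion carriers named Slco were not included. The cystine transporter gene Slc7a11 was not analysed here, because no probe used here named it.

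Solute carriers work without ATP hydrolysis, as facilitators that follow a gradient or as secondary carriers that couple one solute to another. In hepatocytes they take up glucose, amino acids, bile acids, drugs and metals from blood, and the large mitochondrial family links the cytosol to the mitochondrial matrix. Members of a family are related in sequence and often share a substrate type, but the location in the cell and the direction of transport can differ.

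Gene expression was measured on 2-colour arrays in livers of male B6/FVB mice, 7 to 8 weeks old, on a selenium-sufficient diet. All mutations concern Trsp, the gene of the selenocysteine tRNA that all selenoproteins need. Trsp was missing from the liver of DTrsp mice. The transgene of A34 mice had the T34-to-A34 change and was present in 2 copies, and that of G37L and G37H mice had the A37-to-G37 change, in 2 and 16 copies. Wild-type littermates with Trsp were the control on each array. The labels used here do not name the promoter that removes Trsp in DTrsp liver, and they do not say whether the transgenic livers kept their own Trsp or how many founders a line had. Each of the 4 values per gene is the authors' average over animals, which the labels put at 3 for G37H and 4 for each other line. The values hold no spread between animals, so no SD, interval or p-value is given, and every difference below describes 1 averaged value per gene and line. It was not stated whether wild-type animals were shared between lines, so values of different lines are set side by side without a measure of their likeness.

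Values are read as log2 ratios with the Cy5-labelled mutant in the numerator and the Cy3-labelled wild type in the denominator, so 1 is a 2-fold higher level in the mutant and -1 a 2-fold lower one. No source used here states the direction, which is likely from the dyes named in the labels; a turned ratio would change every sign. The array gives ratios and not levels, so no transporter can be called present or absent in liver, and levels of different genes are not compared. In whole liver, fewer cells of a type and less RNA per cell cannot be told apart.

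As a class, solute carrier genes lay close to all genes in each line. Their median log2 ratio was 0.14 in DTrsp and 0.08 in A34, and -0.19 in G37L and -0.12 in G37H, against 0.16, 0.07, -0.11 and -0.11 over all 9285 genes. In DTrsp, 11 of 161 (6.83%) were at least 2-fold apart from wild type, against a background of 4.89% of all genes. In A34 it was 3 (1.86%, background 1.85%), in G37L 9 (5.59%, background 6.47%) and in G37H 8 (4.97%, background 5.88%). By direction, 6 genes were higher and 5 lower in DTrsp (background 3.27% and 1.62%), and 3 were higher and 0 lower in A34 (background 1.4% and 0.452%). In G37L 5 were higher and 4 lower (background 2.51% and 3.96%), and in G37H 3 were higher and 5 lower (background 2.78% and 3.1%). The shares of genes past 2-fold were within 2 percentage points of the background in each line, so the class as a whole did not stand apart and the differences lay in single genes.

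**Figure D1:**
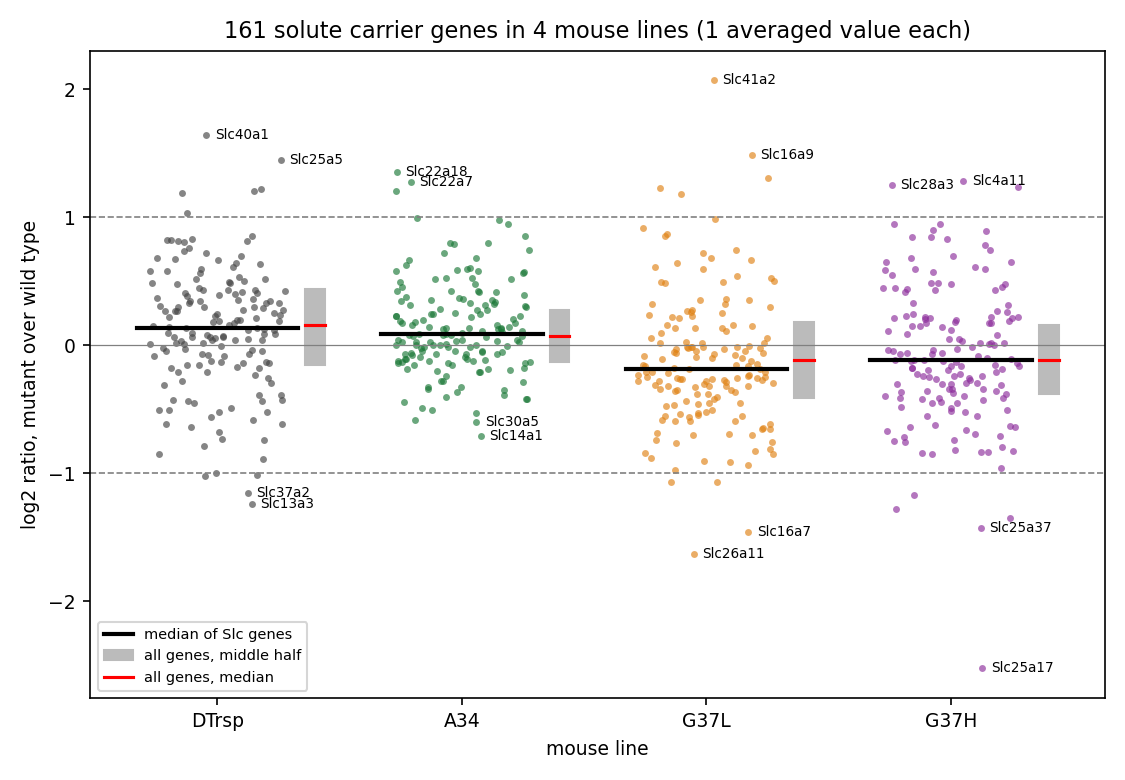
Log2 ratio of mutant over wild type (vertical axis) for each of the 161 solute carrier genes (points) in the 4 mouse lines, with the median of these genes as a black line. Grey boxes show the middle of the distribution of all genes (first to last quartile) with a red median, and dashed lines mark 2-fold; most points lie inside the dashed lines, and Slc25a17 in G37H is the farthest out, at -2.52.

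The balance of higher and lower genes depended on where a column is centred. After each column was centred on its median over all genes, 5 solute carrier genes were higher and 7 lower in DTrsp (background 1.85% and 2.79%), and 3 higher and 0 lower in A34 (background 1.14% and 0.614%). In G37L 7 were then higher and 2 lower (background 3.24% and 2.72%), and in G37H 7 and 5 (background 3.68% and 1.96%). Abundant ribosomal protein and oxidative phosphorylation genes had medians of 0.46 in DTrsp and 0.14 in A34, and 0.17 in G37L and 0.13 in G37H. Centred on these 152 genes, 1 solute carrier gene was higher and 16 were lower in DTrsp (background 0.883% and 8.01%), and 3 and 0 in A34 (background 0.926% and 0.797%). In G37L the counts were 5 and 11 (background 1.69% and 7.17%) and in G37H 3 and 6 (background 2.01% and 4.85%). Under that centring Slc40a1 was the gene that remained at least 2-fold higher in DTrsp.

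In all, 27 of the 161 genes (16.8%) were at least 2-fold apart in 1 line or more, against 15.6% of all genes. Of the 27, 23 passed in 1 line and 4 in 2 lines. The 4 were Slc25a17, higher in DTrsp and lower in G37H, and Slc39a10, Slc28a3 and Slc4a11, higher in both G37L and G37H. The threshold itself separates close values: Slc5a3 counted at -1.001 in DTrsp, while Slc25a48 in A34 and Slc39a7 in G37L, at 0.99 each, did not.

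**Figure D2:**
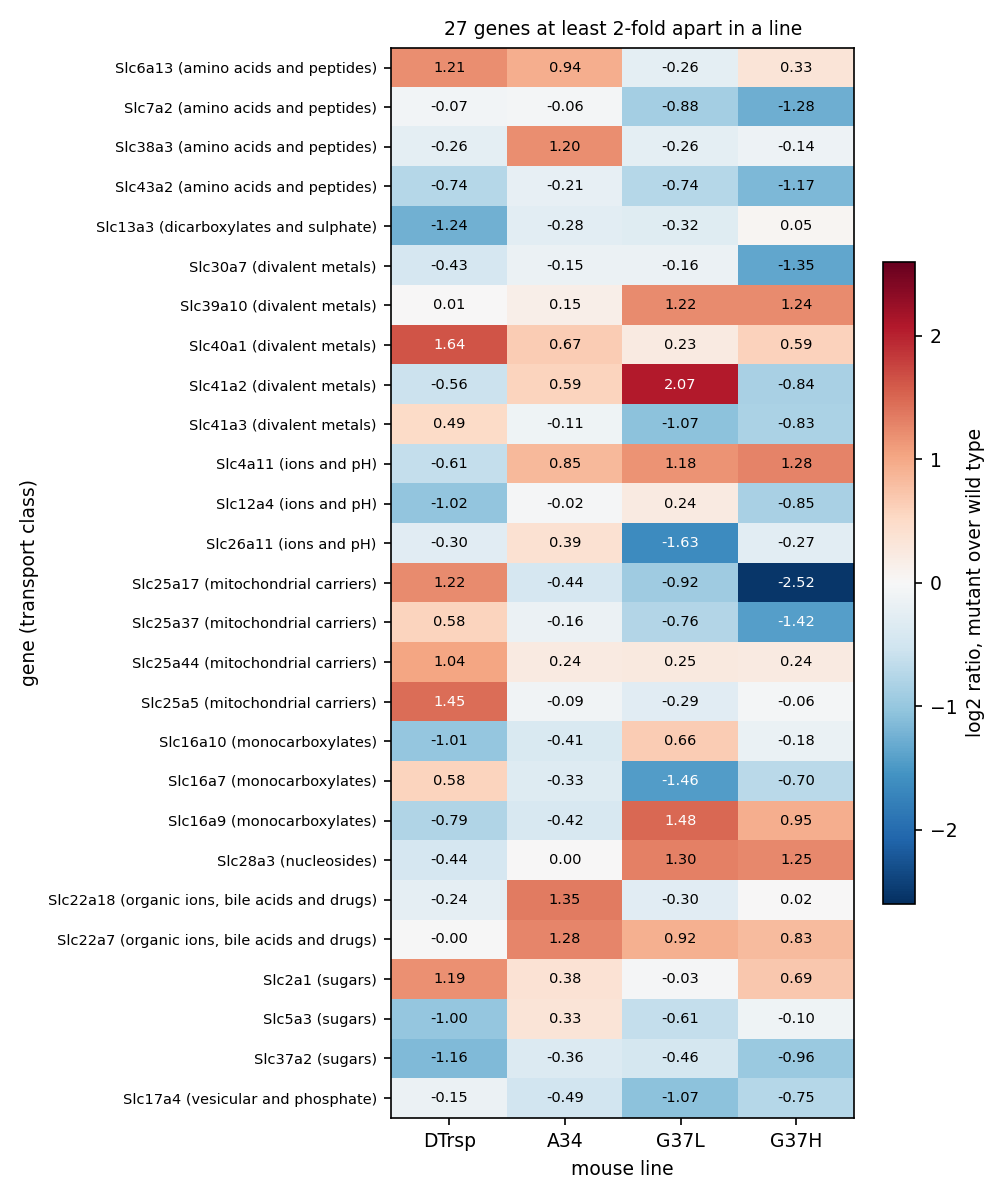
Log2 ratio of mutant over wild type for the 27 solute carrier genes at least 2-fold apart in 1 line or more (rows, with their transport class) in the 4 lines (columns), in numbers and colours, red for higher and blue for lower. Slc39a10, Slc28a3 and Slc4a11 are red in both G37 columns, and Slc25a17 runs from 1.22 in DTrsp to -2.52 in G37H.

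Promoter sequences were read to show which solute carrier genes hold the core of an antioxidant response element near their start. This element is bound by Nrf2, a factor that switches on genes against oxidative stress. The windows, from RefSeq on GRCm38.p6, run from 250 bases before to 50 after a start, and 130 of the 161 genes had 1 or more, 177 in all. The core searched on both strands was TGACNNNGC. It was in 18.6% of these 177 windows and in 12.4% of all 32851 windows. Of the 6 genes at least 2-fold higher in DTrsp, 4 had a window and 2 held the core, Slc25a5 and Slc6a13. Of the 5 lower ones, all had a window and 1, Slc13a3, held it. In DTrsp the core thus occurred among both higher and lower genes. In G37L 5 genes were higher, 4 had a window and 2 held the core, Slc41a2 and Slc28a3. Of the 4 lower genes in G37L, 1 had a window and 0 held the core. In G37H 3 genes were higher, 2 had a window and 1, Slc28a3, held the core. Of the 5 lower genes in G37H, 3 had a window and 0 held it. In A34 3 genes were higher, 1 had a window and 0 held the core. Over all lines, 23.8% of the 21 windows of genes past 2-fold held it. The windows of Slc25a5, Slc6a13, Slc13a3 and Slc41a2 follow, the last as the highest gene in G37L, with the match in capitals; the match starts 106 bases before the start of Slc25a5, 201 before that of Slc13a3 and 108 before that of Slc41a2, and in Slc6a13, at the first of its 3 listed starts, it is on the other strand, 82 bases before the start.
Slc25a5 promoter, chrX:36795347-36795646, strand +: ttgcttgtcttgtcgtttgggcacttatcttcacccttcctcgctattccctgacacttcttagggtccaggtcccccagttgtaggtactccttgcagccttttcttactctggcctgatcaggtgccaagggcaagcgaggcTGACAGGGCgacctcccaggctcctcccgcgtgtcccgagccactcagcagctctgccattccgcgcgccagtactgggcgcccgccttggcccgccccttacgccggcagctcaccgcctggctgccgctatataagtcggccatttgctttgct
Slc6a13 promoter, chr6:121300038-121300337, strand +: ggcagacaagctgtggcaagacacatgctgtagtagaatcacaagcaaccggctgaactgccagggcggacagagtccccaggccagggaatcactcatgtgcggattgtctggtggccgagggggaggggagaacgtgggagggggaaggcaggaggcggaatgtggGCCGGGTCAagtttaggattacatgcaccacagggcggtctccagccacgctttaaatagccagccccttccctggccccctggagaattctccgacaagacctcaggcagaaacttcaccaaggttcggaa
Slc13a3 promoter, chr2:165473148-165473447, strand -: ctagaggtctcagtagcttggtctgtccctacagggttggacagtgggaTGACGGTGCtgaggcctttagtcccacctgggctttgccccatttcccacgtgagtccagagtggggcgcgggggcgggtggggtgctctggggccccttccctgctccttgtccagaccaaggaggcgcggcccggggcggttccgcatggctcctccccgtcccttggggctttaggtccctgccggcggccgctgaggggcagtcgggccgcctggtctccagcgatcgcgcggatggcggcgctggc
Slc41a2 promoter, chr10:83337768-83338067, strand -: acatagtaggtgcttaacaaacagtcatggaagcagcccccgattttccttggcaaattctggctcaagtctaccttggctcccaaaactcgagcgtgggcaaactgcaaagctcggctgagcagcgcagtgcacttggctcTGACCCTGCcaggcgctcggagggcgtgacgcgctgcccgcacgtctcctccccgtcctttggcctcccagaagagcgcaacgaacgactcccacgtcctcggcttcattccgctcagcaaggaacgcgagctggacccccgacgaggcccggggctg

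A metal response element core, TGCGCNC, which can overlap other GC-rich motifs, was in 20.9% of solute carrier windows and 15.4% of all windows. It was found in Slc16a9, Slc41a2 and Slc12a4 among the genes past 2-fold with a window. A C/EBP-ATF core, TGATGNAA, was in 1.13% of solute carrier windows and 3.97% of all windows. Of the 27 genes past 2-fold, 17 had a window and 0 held this core. A match is a string of letters and does not show that a factor binds, and no match says only that the letters are not in the window.

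Mitochondrial carriers, the Slc25 family, formed the largest group with 29 genes. Its medians were 0.20 in DTrsp and 0.16 in A34, and -0.02 in G37L and -0.16 in G37H, each within 0.1 of the median of all genes. In DTrsp 3 (10.3%) were at least 2-fold higher and 0 lower (background 3.27% and 1.62%). In A34 and G37L none passed (background 1.85% and 6.47%). In G37H 0 were higher and 2 (6.90%) lower (background 2.78% and 3.1%). All 3 higher genes in DTrsp fell inside 2-fold when the column was centred on ribosomal protein and oxidative phosphorylation genes. Slc25a5 encodes the adenine nucleotide translocator ANT2, which exchanges ADP for ATP, and was at 1.45 in DTrsp and -0.09 in A34, and at -0.29 in G37L and -0.06 in G37H. It was high in DTrsp and within 0.3 of 0 in the other lines. Slc25a44, a carrier of branched-chain amino acids, was at 1.04 in DTrsp and 0.24 in A34, and at 0.25 in G37L and 0.24 in G37H.

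Slc25a17 had the widest range of all members. It encodes the peroxisomal member of the family, a carrier of coenzyme A and nucleotide cofactors, and was at 1.22 in DTrsp and -0.44 in A34, and at -0.92 in G37L and -2.52 in G37H. The value in G37H is a 5.75-fold lower level than in wild type, and that in DTrsp a 2.33-fold higher one. It was measured by 1 probe. Slc25a37, or mitoferrin 1, which brings iron into mitochondria, was at 0.58 in DTrsp and -0.16 in A34, and at -0.76 in G37L and -1.42 in G37H, likewise highest in DTrsp and lowest in G37H.

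Other Slc25 genes had smaller values. Slc25a1, the citrate carrier that supplies cytosolic acetyl-CoA, was at 0.49 in DTrsp and 0.68 in A34, and at -0.21 in G37L and -0.30 in G37H. Slc25a10, a dicarboxylate carrier, was at 0.81 in DTrsp and 0.51 in A34, and at -0.70 in G37L and -0.40 in G37H. Both were above 0 in DTrsp and A34 and below 0 in the G37 lines. Slc25a20, which imports acylcarnitines for fatty acid oxidation, was at 0.41 in DTrsp and -0.14 in A34, and at -0.48 in G37L and -0.07 in G37H. Urea synthesis needs a pair of these carriers. The ornithine carrier Slc25a15 was at 0.85 in DTrsp and 0.13 in A34, and at 0.32 in G37L and -0.20 in G37H. Citrin, the aspartate-glutamate carrier Slc25a13, was at -0.68 in DTrsp and 0.0018 in A34, and at -0.53 in G37L and -0.55 in G37H, so these carriers lay on opposite sides of 0 in DTrsp and in G37L. Slc25a47, a carrier known for its restriction to liver, was at 0.64 in DTrsp and 0.49 in A34, and at -0.21 in G37L and -0.50 in G37H. Slc25a30 was at -0.53 in DTrsp and 0.06 in A34, and at 0.15 in G37L and 0.65 in G37H. The family's lowest member in DTrsp was the coenzyme A carrier Slc25a42 at -0.89. Its highest in A34, G37L and G37H was Slc25a48, at 0.99, 0.72 and 0.89.

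Metal transporters (24 genes of families 11, 30, 31, 39, 40 and 41) had medians of 0.14 in DTrsp and 0.08 in A34, and 0.02 in G37L and -0.16 in G37H. In DTrsp 1 (4.17%) was at least 2-fold higher, against 3.27% of all genes. In G37L 2 (8.33%) were higher and 1 (4.17%) lower (background 2.51% and 3.96%). In G37H 1 (4.17%) was higher and 1 (4.17%) lower (background 2.78% and 3.1%). Slc40a1, or ferroportin, the exporter of cellular iron, was the highest solute carrier gene in DTrsp. It was at 1.64 in DTrsp and 0.67 in A34, and at 0.23 in G37L and 0.59 in G37H, so it was above 0 in each line and 3.11-fold higher in DTrsp. Ferroportin is expressed in Kupffer cells as well as hepatocytes. Of 15 Kupffer cell and macrophage markers, 14 were measured. In DTrsp their median was 0.13, with a range from -0.59 to 1.02. There 1 of the 14 (7.14%), Cd163, was at least 2-fold higher (background 3.27%). Slc40a1 was lower in A34, G37L and G37H than in DTrsp. The marker medians in these lines were 0.54, 0.67 and 0.47, with ranges of -0.06 to 1.12, 0.17 to 1.60 and -0.35 to 1.56. At least 2-fold higher were 2 of the 14 markers in A34, 4 in G37L and 2 in G37H (14.3%, 28.6% and 14.3%, background 1.4%, 2.51% and 2.78%). Their part in the Slc40a1 values was not tested. Other iron carriers had lower values in DTrsp. The endosomal iron importer Slc11a2 was at 0.19 in DTrsp and -0.09 in A34, and at -0.21 in G37L and 0.59 in G37H. Its relative Slc11a1, a phagosomal carrier of macrophages, was at 0.10 in DTrsp and -0.19 in A34, and at -0.02 in G37L and 0.17 in G37H.

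The magnesium transporters of family 41 diverged in G37L. Slc41a2 was at -0.56 in DTrsp and 0.59 in A34, and at 2.07 in G37L and -0.84 in G37H, the highest of all solute carrier values, 4.20-fold above wild type in G37L and below it in G37H. Slc41a3 was at 0.49 in DTrsp and -0.11 in A34, and at -1.07 in G37L and -0.83 in G37H, below 0 in both G37 lines. Slc41a1, which exchanges magnesium for sodium, was at 0.20 in DTrsp and 0.08 in A34, and at -0.69 in G37L and -0.67 in G37H. The 3 members of the family therefore had no common direction in G37L.

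Zinc importers (family 39, 9 genes) and zinc exporters (family 30, 7 genes) mostly lay within 2-fold of wild type. Slc39a10, a zinc importer of the plasma membrane, was at 0.01 in DTrsp and 0.15 in A34, and at 1.22 in G37L and 1.24 in G37H. It was past 2-fold in both G37 lines, at nearly the same value, and near 0 or slightly above it in DTrsp and A34. Slc39a7, which releases zinc from the endoplasmic reticulum, was at 0.36 in DTrsp and 0.42 in A34, and at 0.99 in G37L and -0.29 in G37H, just inside 2-fold in G37L. Slc39a14, a zinc, iron and manganese importer of hepatocytes, was at 0.0075 in DTrsp and 0.09 in A34, and at 0.59 in G37L and 0.09 in G37H. Slc39a8, a zinc and manganese importer that also carries selenite, was at 0.50 in DTrsp and -0.11 in A34, and at -0.15 in G37L and -0.18 in G37H. The importer of dietary zinc, Slc39a4, was at 0.73 in DTrsp and 0.21 in A34, and at 0.11 in G37L and -0.25 in G37H.

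Among the exporters, Slc30a7, which loads zinc into the Golgi, was at -0.43 in DTrsp and -0.15 in A34, and at -0.16 in G37L and -1.35 in G37H, a 2.55-fold lower level in G37H. Slc30a5, which works as a pair with Slc30a6 in the early secretory pathway, was at 0.07 in DTrsp and -0.60 in A34, and at 0.49 in G37L and -0.62 in G37H, on opposite sides of 0 in the 2 G37 lines. Slc30a6 was at 0.27 in DTrsp and -0.14 in A34, and at 0.14 in G37L and -0.34 in G37H, with smaller values of the same signs in both G37 lines. Slc30a1, the zinc exporter of the plasma membrane, was at 0.68 in DTrsp and 0.24 in A34, and at -0.26 in G37L and 0.12 in G37H. Slc30a10, a manganese exporter, was at 0.04 in DTrsp and -0.18 in A34, and at -0.70 in G37L and 0.68 in G37H.

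The amino acid and peptide families (24 genes, among them Slc7a6os, which is no transporter) had medians of 0.17 in DTrsp and 0.13 in A34, and -0.27 in G37L and -0.16 in G37H. In DTrsp and in A34 1 (4.17%) was at least 2-fold higher and 0 lower (background for higher 3.27% and 1.4%). In G37L none passed (background 6.47%). In G37H 0 were higher and 2 (8.33%) lower (background 2.78% and 3.1%). Slc6a13, a transporter of GABA and taurine in hepatocytes, was at 1.21 in DTrsp and 0.94 in A34, and at -0.26 in G37L and 0.33 in G37H. With the same centring on ribosomal protein and oxidative phosphorylation genes, its DTrsp value fell inside 2-fold, at 0.75. Slc6a12, next to it in the genome with no other protein-coding gene between them, was at 0.33 in DTrsp and 0.03 in A34, and at -0.36 in G37L and 0.08 in G37H. Slc38a3, a glutamine transporter of hepatocytes around the central vein, was at -0.26 in DTrsp and 1.20 in A34, and at -0.26 in G37L and -0.14 in G37H, high in A34 and slightly below 0 in the other lines. Its relatives Slc38a2 and Slc38a4, also genome neighbours, stayed between -0.43 and 0.40 in all lines.

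Slc7a2, the cationic amino acid transporter CAT2 that takes arginine into hepatocytes, was at -0.07 in DTrsp and -0.06 in A34, and at -0.88 in G37L and -1.28 in G37H. It was close to 0 in DTrsp and A34 and low in both G37 lines. Slc43a2, which carries large neutral amino acids, was at -0.74 in DTrsp and -0.21 in A34, and at -0.74 in G37L and -1.17 in G37H, below 0 in every line. The plasma membrane arginine carrier Slc7a1 was at 0.51 in DTrsp and -0.14 in A34, and at -0.27 in G37L and -0.18 in G37H. Family 3 encodes heavy chains, which bring the light chains of family 7 to the membrane. Slc3a2 was at 0.56 in DTrsp and 0.41 in A34, and at 0.32 in G37L and 0.43 in G37H. Slc3a1 was at -0.62 in DTrsp and 0.23 in A34, and at 0.85 in G37L and 0.85 in G37H, below 0 in DTrsp and the highest of the class in both G37 lines. The glutamate transporter Slc1a2 was at -0.18 in DTrsp and -0.53 in A34, and at -0.77 in G37L and -0.56 in G37H, the lowest of the class in A34. The glycine transporter Slc6a9 was at 0.76 in DTrsp and -0.35 in A34, and at -0.02 in G37L and 0.0027 in G37H. Slc15a4, a lysosomal histidine and peptide carrier, was at -0.45 in DTrsp and 0.52 in A34, and at -0.35 in G37L and -0.63 in G37H. Slc6a17 was the lowest of the class in G37L, at -0.97. Outside these families, Slc66a1, a lysosomal exporter of cationic amino acids, was at 0.66 in DTrsp and 0.53 in A34, and at -0.65 in G37L and -0.85 in G37H. Its relative Slc66a2 was at 0.22 in DTrsp and 0.30 in A34, and at -0.55 in G37L and -0.66 in G37H. Both averages were thus above 0 in DTrsp and A34 and below 0 in the G37 lines. The 2 probes of Slc66a2 disagreed in sign, at 0.44 and -0.01 in DTrsp and at 0.93 and -0.33 in A34. In G37L these probes were at 0.20 and -1.30, and in G37H, on 1 side of 0, at -0.29 and -1.03.

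The families grouped as sugar transporters (2, 5, 37, 45 and 50, with 12 genes, among them the vitamin transporter Slc5a6) had medians of 0.27 in DTrsp and 0.14 in A34, and -0.24 in G37L and -0.17 in G37H. In DTrsp 1 (8.33%) was at least 2-fold higher and 2 (16.7%) lower (background 3.27% and 1.62%). In A34, G37L and G37H none passed (background 1.85%, 6.47% and 5.88%). Slc2a1, the glucose transporter GLUT1 that most tissues use, was at 1.19 in DTrsp and 0.38 in A34, and at -0.03 in G37L and 0.69 in G37H. Centred on ribosomal protein and oxidative phosphorylation genes, its DTrsp value was 0.73, inside 2-fold. Slc2a2, the hepatocyte glucose transporter GLUT2, was at 0.30 in DTrsp and 0.47 in A34, and at -0.60 in G37L and -0.41 in G37H. The values of GLUT1 were above those of GLUT2 in DTrsp, G37L and G37H, which compares ratios and not levels. Slc37a4, which moves glucose 6-phosphate into the endoplasmic reticulum for glucose release, was at 0.35 in DTrsp and 0.18 in A34, and at 0.13 in G37L and 0.31 in G37H. Its relative Slc37a2, a sugar phosphate exchanger known from macrophages, was at -1.16 in DTrsp and -0.36 in A34, and at -0.46 in G37L and -0.96 in G37H, below 0 in every line. The myo-inositol transporter Slc5a3 was at -1.001 in DTrsp and 0.33 in A34, and at -0.61 in G37L and -0.10 in G37H. Slc5a6, which carries biotin and pantothenate, was at 0.82 in DTrsp and 0.08 in A34, and at 0.74 in G37L and -0.64 in G37H, the highest of the 12 in G37L.

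Transporters of organic ions, bile acids and drugs (10 genes) had medians of 0.14 in DTrsp and 0.10 in A34, and -0.25 in G37L and -0.22 in G37H. The 2 genes (20%) at least 2-fold apart were both higher in A34, where the background was 1.4%. Slc22a7, the organic anion transporter OAT2, was at -0.004 in DTrsp and 1.28 in A34, and at 0.92 in G37L and 0.83 in G37H. It was close to 0 in DTrsp and above 0 in all 3 transgenic lines. Slc22a18, an orphan transporter of this family, was at -0.24 in DTrsp and 1.35 in A34, and at -0.30 in G37L and 0.02 in G37H, past 2-fold in A34 only. The bile acid uptake transporter Slc10a1, or NTCP, was at 0.18 in DTrsp and -0.42 in A34, and at -0.85 in G37L and -0.39 in G37H. Slc47a1, which exports organic cations into bile, was at 0.09 in DTrsp and 0.02 in A34. In G37L it was at -0.65 and in G37H at -0.31, so its average was likewise lowest in G37L. Its 3 probes were far apart in G37L, at -1.23, -0.11 and -0.61. The probe at -0.11 was lowest in DTrsp, at -0.24. The carnitine transporter Slc22a5 was at -0.08 in DTrsp and 0.37 in A34, and at -0.28 in G37L and -0.34 in G37H. Slc22a23 had the highest DTrsp value of the class, at 0.61.

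Monocarboxylate transporters (5 genes of family 16) differed from each other. Slc16a9, which is linked to carnitine efflux, was at -0.79 in DTrsp and -0.42 in A34, and at 1.48 in G37L and 0.95 in G37H. Slc16a7, the lactate and pyruvate transporter MCT2, was at 0.58 in DTrsp and -0.33 in A34, and at -1.46 in G37L and -0.70 in G37H. In G37L the first was 2.80-fold higher and the second 2.75-fold lower than in wild type. Slc16a10, a carrier of aromatic amino acids, was at -1.01 in DTrsp and -0.41 in A34, and at 0.66 in G37L and -0.18 in G37H. Slc16a11 and Slc16a12 stayed between -0.45 and 0.35.

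Nucleoside transporters numbered 3. Slc28a3, the sodium-coupled nucleoside transporter CNT3, was at -0.44 in DTrsp and 0.0043 in A34, and at 1.30 in G37L and 1.25 in G37H, with close values in both G37 lines. The facilitators Slc29a1 and Slc29a2 stayed between 0.13 and 0.53 in all lines.

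Ion and pH transporters (24 genes, among them the adaptors Slc4a1ap, Slc9a3r1 and Slc9a3r2) had medians of -0.0084 in DTrsp and -0.0050 in A34, and -0.21 in G37L and -0.14 in G37H. Slc4a11, a proton-conducting member of the bicarbonate family, was at -0.61 in DTrsp and 0.85 in A34, and at 1.18 in G37L and 1.28 in G37H, below 0 in DTrsp and above 0 in all 3 transgenic lines. The sulphate transporter Slc26a11 was at -0.30 in DTrsp and 0.39 in A34, and at -1.63 in G37L and -0.27 in G37H, the lowest solute carrier gene in G37L. Its relative Slc26a1, the sulphate transporter of hepatocytes, was at 0.23 in DTrsp and 0.25 in A34, and at -0.30 in G37L and -0.11 in G37H. The potassium-chloride cotransporter Slc12a4 was at -1.02 in DTrsp and -0.02 in A34, and at 0.24 in G37L and -0.85 in G37H. Slc4a1, the anion exchanger of red cells, was at 0.43 in DTrsp and -0.14 in A34, and at -0.10 in G37L and -0.11 in G37H. Of 8 erythroid markers 4 were measured, and their range was -0.48 to 1.37 in DTrsp, with Hba-a1 and Hbb-b1 at 1.13 and 1.37. They ran from 0.16 to 0.49 in A34, from -1.25 to 0.43 in G37L and from -0.65 to 0.27 in G37H, and their part in the Slc4a1 values was not tested. Slc20a1, a phosphate importer, was at -0.43 in DTrsp and -0.35 in A34, and at -0.06 in G37L and -0.83 in G37H.

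Slc13a3, the only measured member of family 13, carries succinate and other dicarboxylates and was the lowest solute carrier gene in DTrsp, at -1.24 in DTrsp and -0.28 in A34, and at -0.32 in G37L and 0.05 in G37H. In family 17, a group of phosphate, urate and vesicular carriers with 8 genes, Slc17a4 was at -0.15 in DTrsp and -0.49 in A34, and at -1.07 in G37L and -0.75 in G37H. Slc17a2, Slc17a3, Slc17a1 and Slc17a4 lie in a row in the genome, with no other protein-coding gene between neighbours. Their G37L values were -0.03, 0.48, -0.58 and -1.07 in that order, so neighbours differed. The family's medians were 0.05, 0.13, -0.48 and 0.22 in DTrsp, A34, G37L and G37H.

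No member passed 2-fold among the vitamin, choline and haem transporters (11 genes), the fatty acid transporters (3), the nucleotide sugar transporters (3) and the remaining 4 genes. Over all genes the shares past 2-fold were 4.89%, 1.85%, 6.47% and 5.88% in DTrsp, A34, G37L and G37H. Slc48a1, which carries haem out of lysosomes, was at 0.83 in DTrsp and 0.42 in A34, and at -0.28 in G37L and 0.19 in G37H. The reduced folate carrier Slc19a1 was at 0.07 in DTrsp and -0.13 in A34, and at 0.87 in G37L and 0.94 in G37H, the highest of its class in both G37 lines. Both ascorbate transporters of family 23 were below 0 in these lines. Slc23a1 was at 0.04 in DTrsp and -0.02 in A34, and at -0.70 in G37L and -0.79 in G37H. Slc23a2 was at 0.37 in DTrsp and -0.01 in A34, and at -0.85 in G37L and -0.48 in G37H. Slc46a3, a lysosomal carrier, was at -0.43 in DTrsp and 0.80 in A34, and at 0.09 in G37L and 0.26 in G37H. The fatty acid transporter Slc27a2, which also activates very long chain fatty acids, was at 0.49 in DTrsp and 0.32 in A34, and at 0.02 in G37L and 0.44 in G37H. Slc27a5, which activates bile acids, was at 0.09 in DTrsp and 0.07 in A34, and at -0.26 in G37L and -0.05 in G37H. Slc27a4 was at 0.69 in DTrsp and 0.14 in A34, and at 0.13 in G37L and 0.55 in G37H. In each line Slc27a5 had the lowest value of the 3. Slc35a1, which brings CMP-sialic acid into the Golgi, was at 0.72 in DTrsp and 0.58 in A34. In G37L it was at 0.54 and in G37H at 0.74. These are averages of 2 probes, which lay apart at 1.17 and 0.27 in DTrsp. In G37L the probes were at 0.38 and 0.70, in the other order. The acetyl-CoA carrier Slc33a1 was at 0.41 in DTrsp and -0.24 in A34, and at 0.50 in G37L and 0.05 in G37H. The urea transporter Slc14a1 was the lowest solute carrier gene in A34, at -0.74 in DTrsp and -0.71 in A34, and at -0.36 in G37L and 0.01 in G37H.

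**Figure D3:**
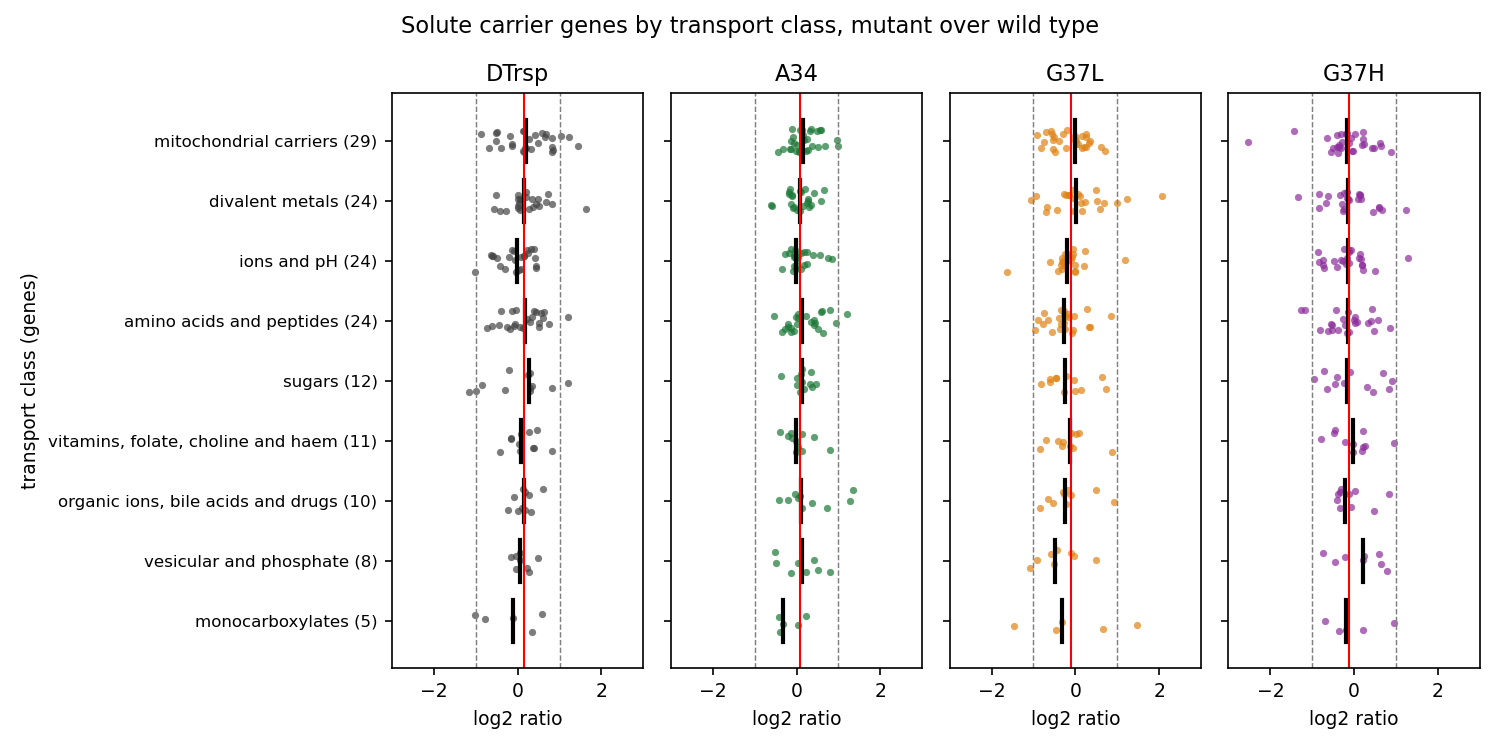
Log2 ratios of solute carrier genes (points) in the 9 transport classes with 5 or more genes (rows, with the number of genes) in each line (panels), with class medians as black bars, the median of all genes as a red line and 2-fold as dashed lines. Class medians stay near the red line in most rows, and the points past the dashed lines belong to several classes.

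The 2 lines with the A37-to-G37 change differ in copy number, and their values were subtracted gene by gene. In G37H minus G37L, 5 solute carrier genes were higher by 2-fold or more and 7 were lower (background 4.07% and 2.67% of all genes). Among the lower genes, Slc41a2 had the largest difference, at -2.91, and Slc25a17 came next, at -1.61. Slc5a6, Slc39a7, Slc30a7 and Slc30a5 followed, at -1.38, -1.28, -1.19 and -1.11. Among the higher genes, the sugar transporter Slc45a3 was at 1.72, the vesicular glutamate transporter Slc17a8 at 1.69 and Slc30a10 at 1.38. Slc26a11 and the urate and phosphate carrier Slc17a1 were at 1.36 and 1.23. The amino acid carrier Slc36a4 came next, at 0.92, inside 2-fold. None of these differences has a spread between animals beside it.

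**Figure D4:**
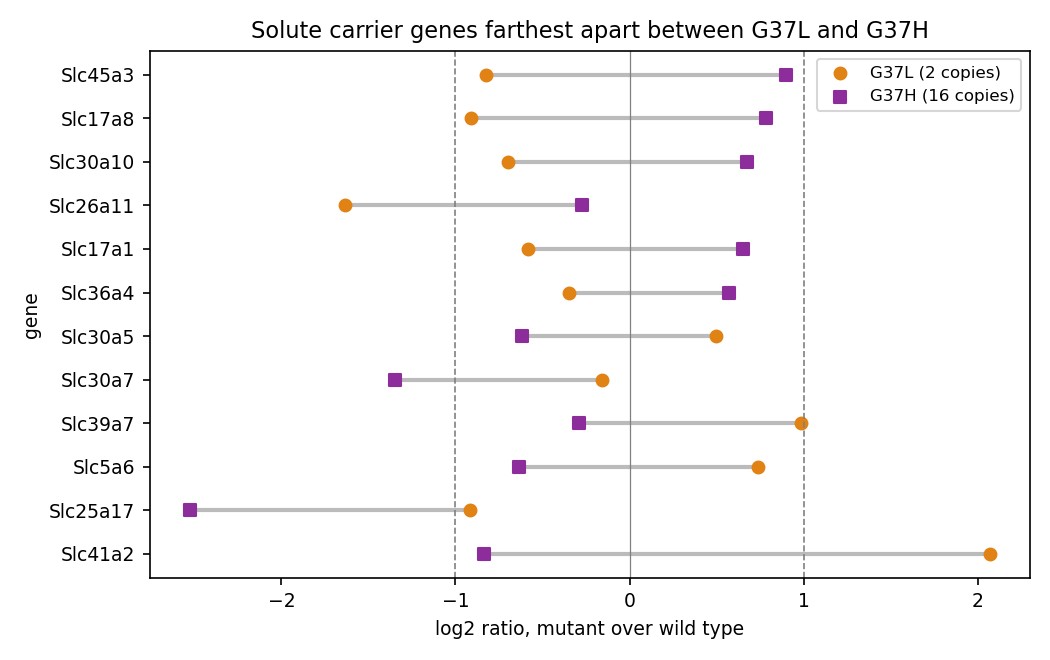
Log2 ratio of mutant over wild type in G37L (circles, 2 transgene copies) and G37H (squares, 16 copies) for the 6 solute carrier genes with the highest and the 6 with the lowest difference between them. Slc41a2 lies at 2.07 and -0.84, and Slc25a17 at -0.92 and -2.52; dashed lines mark 2-fold.

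A34 and G37L carry the same number of transgene copies with different changes. In A34 minus G37L, 13 solute carrier genes were at least 2-fold higher and 6 lower (background 7.07% and 2.55%). The highest were Slc26a11 at 2.03, Slc22a18 at 1.65, the mitochondrial ATP-magnesium carrier Slc25a23 at 1.48 and Slc38a3 at 1.46. Slc17a8 and the potassium-chloride cotransporter Slc12a7 followed, at 1.43 and 1.34. The lowest were Slc16a9 at -1.91, Slc41a2 at -1.48 and Slc28a3 at -1.30. Slc30a5, Slc39a10 and Slc16a10 were at -1.10, -1.07 and -1.07.

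The number of arrays behind a value can be read in part from its decimals. A value averaged over 4 arrays can end on any multiple of the 4-decimal step divided by 4, while a value from 1 array has no fraction of that step. Among solute carrier probes, the share of values with no fraction was 33.2% in DTrsp and 33.6% in A34, and 32.7% in G37L and 36.5% in G37H, against 29.8%, 30.7%, 37.8% and 43.5% of all probes. Averages over several arrays can also end without a fraction. Of the 9 genes at least 2-fold apart in G37L, 7 had no fraction: Slc41a2, Slc16a9, Slc28a3, Slc39a10, Slc26a11, Slc17a4 and Slc41a3. Of the 11 in DTrsp it was 3, Slc40a1, Slc6a13 and Slc25a44. Of the 7 genes in G37H with 1 probe it was also 3, Slc25a37, Slc30a7 and Slc43a2. Slc25a17 in G37H and Slc5a3, Slc12a4 and Slc37a2 in DTrsp ended on a step divided by 3. For Slc25a17 this is the labelled number of animals in G37H, and for the 3 genes in DTrsp it is fewer than the labelled 4. Slc28a3, Slc39a10 and Slc4a11 in G37H ended on a step divided by 2, and 3 arrays averaged together cannot end there.

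Probes give a further view of precision. Of the 161 genes, 119 had 1 probe, 34 had 2 and 8 had 3. Of the 27 genes past 2-fold, 25 had 1 probe, and the other 2 were Slc22a18 and Slc7a2. The probes of Slc22a18 were at 1.14 and 1.57 in A34, and those of Slc7a2 at -0.76, -1.94 and -1.13 in G37H, so each lay on 1 side of 0. Over the 42 genes with several probes, the median distance between the highest and the lowest probe was 0.46 in DTrsp and 0.31 in A34, and 0.28 in G37L and 0.20 in G37H. In DTrsp 11 of the 42 had probes at least 1 log2 unit apart, in A34 3, in G37L 2 and in G37H 2. Probes on opposite sides of 0 were more common, with 22 of the 42 genes in DTrsp and 22 in A34. The G37L count was 16 and the G37H count 11. Slc22a30 was the widest in DTrsp, with -0.65, 1.06 and -0.06. Slc39a4 had 1.41 and 0.06 and Slc3a2 had 1.07 and 0.06 there, so their averages hide 1 probe above 1 and 1 near 0. The probes of Slc2a2 in A34 were at -0.22, 1.06 and 0.59, and in G37L they were closer, at -0.68, -0.39 and -0.72. For Slc10a1 in G37L they were at -0.63 and -1.07. Some averages given above came from probes of opposite sign, so their direction is unsure. Examples in A34 were Slc25a13 with -0.40 and 0.40, Slc39a14 with -0.53 and 0.70, and Slc30a1 with 0.72 and -0.23. Slc22a5 had -0.47 and 0.30 in DTrsp.

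**Figure D5:**
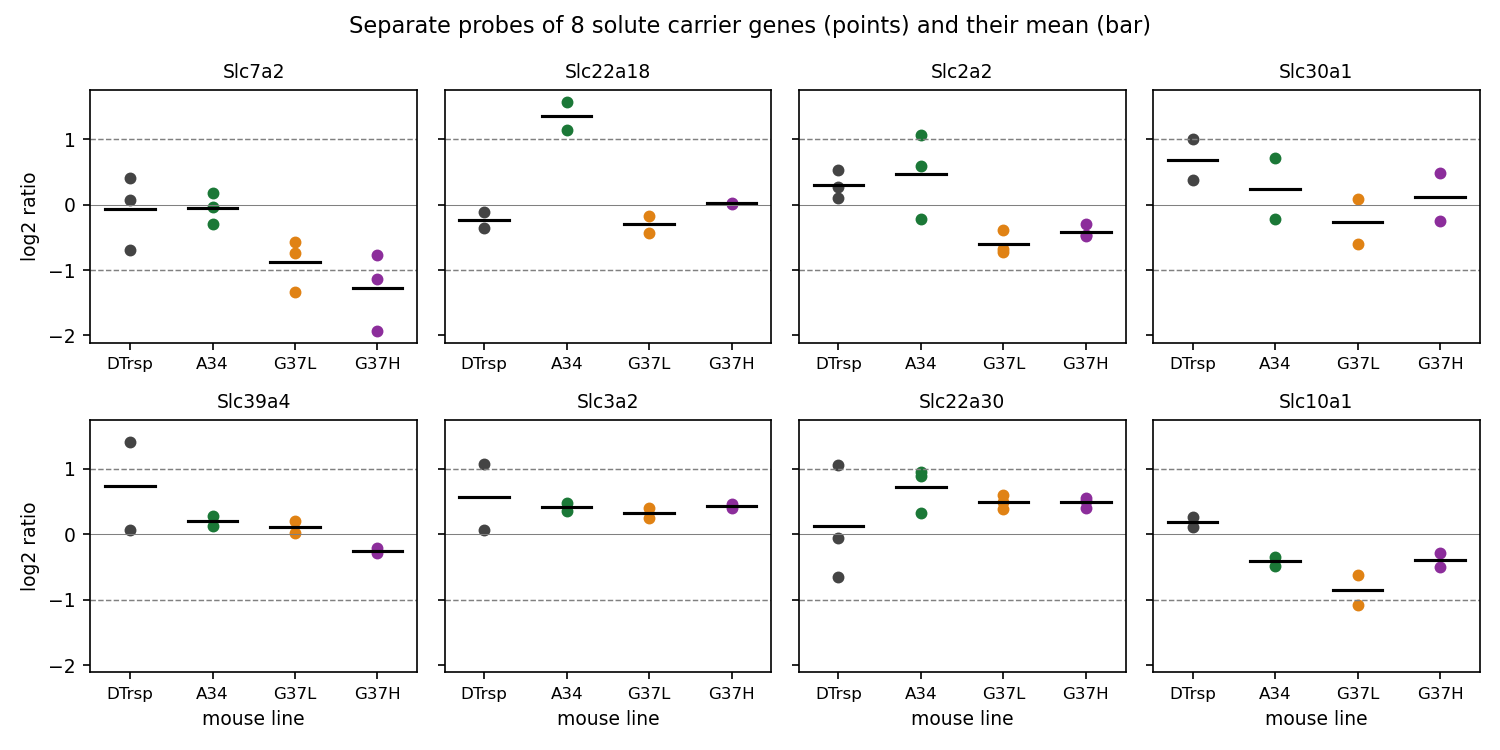
Log2 ratio of mutant over wild type of each probe (points) and their mean (bars) for 8 solute carrier genes with several probes, in the 4 lines, with 2-fold as dashed lines. All probes of Slc7a2 lie below 0 in G37L and G37H, and both of Slc22a18 lie above 1 in A34, while the probes of Slc39a4 and Slc3a2 are far apart in DTrsp.

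Other transport genes give context. Of 31 ABC transporter genes, whose products move solutes at the cost of ATP, 6 were at least 2-fold higher and 0 lower in DTrsp (19.4% higher, against 3.73% of solute carrier genes and 3.27% of all genes). They were Abcc12 at 1.62, Abcc3 at 1.39, Abcd3 at 1.37, Abcb6 at 1.34, Abcc2 at 1.22 and Abcc5 at 1.18. Ribosomal protein and oxidative phosphorylation genes had a median of 0.46 in DTrsp. Of these ABC genes, only Abcc12 lay more than 1 log2 unit above that median. Abcc12 was also at 1.30 in G37L and 1.52 in G37H. No test of the difference between the 2 kinds of transporter was made. The 6 Slco genes had a median of 0.06 in DTrsp, with 1 of them at least 2-fold lower (16.7%, background 1.62%). Of 8 aquaporins and 30 ATPase pump genes, 1 of each was at least 2-fold higher in DTrsp (12.5% and 3.33%, background 3.27%). The 12 hepatocyte markers had medians of 0.66, 0.33, 0.54 and 0.54 in DTrsp, A34, G37L and G37H, each above the median of solute carrier genes. Their ranges were 0.19 to 0.79 in DTrsp and -1.02 to 0.49 in A34. In G37L they ran from -0.99 to 1.61 and in G37H from -1.15 to 0.86. G6pc was the lowest of them in every line.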

How the data were processed

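Total liver RNA was labelled and hybridised on 2-colour arrays, mutant in Cy5 and wild type in Cy3, with 1 replicate per array, per the labels. The deposited values are one column per mouse line, read here as log2 ratios, which the authors averaged over biological replicates. Not given in the sources used here are the log base, background correction, normalization, dye swaps and spot filters. Of 15478 probes, 13047 had 1 gene in the platform annotation, 110 had several and 2321 were not listed. Probes of a gene were averaged with pandas 2.3.3 in Python 3.11.15. With 1 averaged value per line no test was possible, so a gene counted as different at 2-fold or more. The text names every member past 2-fold, the 6 highest and 6 lowest differences between lines, and genes of a fixed list (48 of 61 listed were measured). The list held transporters known in liver or in metal, cystine and fuel handling. It also held Slc25a17, Slc41a2 and Slc7a11, which were given as examples with the rule for members. The number of arrays limits the precision. The members and lists were chosen with earlier results of these data known. Alternatives were other thresholds, centrings, scales, log base, probe summaries and values without a fraction of the last decimal. The counting steps were tested on simulated data.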

Additional observations from a re-analysis of the deposited data

How the results depend on the processing

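Counts below give how many of the 161 solute carrier genes were higher and lower in DTrsp, A34, G37L and G37H in that order; at 2-fold they were 6 and 5, 3 and 0, 5 and 4, and 3 and 5. At 1.5-fold they were 24 and 14, 18 and 3, 16 and 27, and 20 and 25, against 15.6% and 6.96%, 7.60% and 2.65%, 7.45% and 15.3%, and 7.30% and 13.1% of all genes. At 3-fold they were 1 and 0, 0 and 0, 1 and 1, and 0 and 1 (all genes 0.657% and 0.162%, 0.237% and 0.0323%, 0.657% and 0.635%, and 0.549% and 0.388%), and 4 of the 31 values past 2-fold remained. Reading the values as natural logs gave 17 and 10, 12 and 1, 11 and 19, and 12 and 19, against 10.2% and 4.74%, 4.76% and 1.63%, 5.51% and 11.1%, and 5.77% and 8.91% of all genes. Centring on column medians gave 2 lower in G37L and 7 higher in G37H, with class medians of -0.021 in DTrsp, -0.074 in G37L and -0.0026 in G37H; Slc25a44 in DTrsp and Slc17a4 and Slc41a3 in G37L fell inside 2-fold. Centring on ribosomal protein and oxidative phosphorylation genes gave 1 and 16 in DTrsp and 11 lower in G37L, with medians of -0.32, -0.055, -0.36 and -0.25; Slc25a17, Slc25a44, Slc25a5, Slc2a1 and Slc6a13 in DTrsp fell inside 2-fold. Scaling columns to a common spread gave 12 and 1 in A34 (7.45% and 0.621%, all genes 4.82% and 1.66%) and 5 higher in G37H (3.11%, all genes 3.47%). Without values that have no decimal fraction, 13 of the 31 values were lost, leaving 1 and 2 of 110 genes in G37L (all genes 2.24% and 3.06%) and 3 lower of 107 in G37H (all genes 2.24%). The direction of a value past 2-fold could not change under these settings. Centring moved values by at most 0.46, and the other settings keep the sign of these values. The cause of the changes in counts and medians was not tested beyond the construction of each setting. No paired analysis was possible because each line has 1 averaged column.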
